A study of Caenorhabditis elegans with 15 samples.

Results

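The libraries compared here read the spliced-leader-tagged RNA of muscle in dauer larvae of Caenorhabditis elegans and in L1 and L2 larvae. All genes of the deposited count table were examined in the 4 libraries whose labels give these stages, out of 15 in the series. All 4 came from worms of 1 transgenic strain label, Pmyo-3::tag:SL1(G16C), in which the myo-3 promoter drives an SL1 spliced leader that carries a sequence tag. Dauer muscle was sequenced in 2 libraries, L1 muscle in 1 and L2 muscle in 1. The dauers had grown in shaken liquid culture for 3 to 4 days at 20 °C. They were then selected with 1% SDS for 15 min, cleaned by sucrose flotation and Ficoll, and rested overnight in 0.1 M NaCl, and over 90% were live dauers by eye. The L1 larvae had hatched overnight on plates that held no food, and the L2 larvae had fed for about 12 h, so of the larvae only those at L2 had been growing on food. Dauer and larval worms thus differed in culture and handling as well as in stage, and in these libraries the effects cannot be told apart. The labels do not say that the libraries of a group came from separate cultures, although the design text speaks of biological replicates for most groups, so the p-values measure the spread between libraries. As L1 and L2 have 1 library each, in the main fit that spread comes from the other groups of the series.

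The dauer is an arrested alternative to the third larval stage, entered when larvae meet crowding and scarce food. It does not feed, lives on stored fat, resists detergent and drying, and moves little until it is stimulated, and insulin, TGF-beta and steroid hormone signalling control its formation. Body-wall muscle of C. elegans consists of mononucleate cells with obliquely striated sarcomeres that are fixed to the body wall through dense bodies and M-lines. In trans-splicing, the start of a pre-mRNA is replaced by a short leader, so that a tag placed in the leader of muscle cells marks the 5′ ends of the RNAs that these cells trans-splice. RNAs that receive no SL1 leader are not seen by the method.

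Gene totals came to 1974529 and 9587967 reads in dauer muscle, against 709137 reads in L1 and 1815663 in L2 muscle, and 7945 and 4569 genes against 4302 and 4415 genes had at least 1 read. The second dauer library had the most reads but missed many genes. Of 7233 genes whose level in the first dauer library predicted 20 or more reads in the second, 39.5% had none there, against 1.94% the other way round. Between L1 and L2 the same shares were 22.4% and 20.6%. A gene without reads in 1 library can therefore be a gene that was lost in preparing it. Of all reads at splice acceptor sites, those at annotated cis sites, where exons of 1 transcript are joined, made 12.8% and 14.7% in dauer libraries, against 29.6% in L1 and 39.8% in L2. These reads are not part of the gene counts, which in 13644 of 13646 genes equal the summed reads at trans sites. A single acceptor annotated to exon 9 of rpc-2 (chromosome III, position 5564506) held 0.0148% and 0.00729% of site reads in dauer muscle, against 3.72% in L1 and 10.6% in L2. Another, at exon 3 of the neighbouring myosin light chain gene mlc-3 (chromosome III, position 5566674), held 23 and 0 reads in dauer muscle, against 7375 in L1 and 16531 in L2, whereas the count table gives mlc-3 no reads in these libraries. Gene counts were also refitted with cis reads added, and for genes given with a test below that value is shown where it changes the call or moves the fold change by over 1.5 times. List sums were also taken in combined CPM, the CPM among all trans and cis reads together. This scale raises dauer over larval ratios in general, by a median of 0.67 on the log2 scale (1.59-fold) over the 2488 tested genes read in all 4 libraries.

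**Figure D1:**
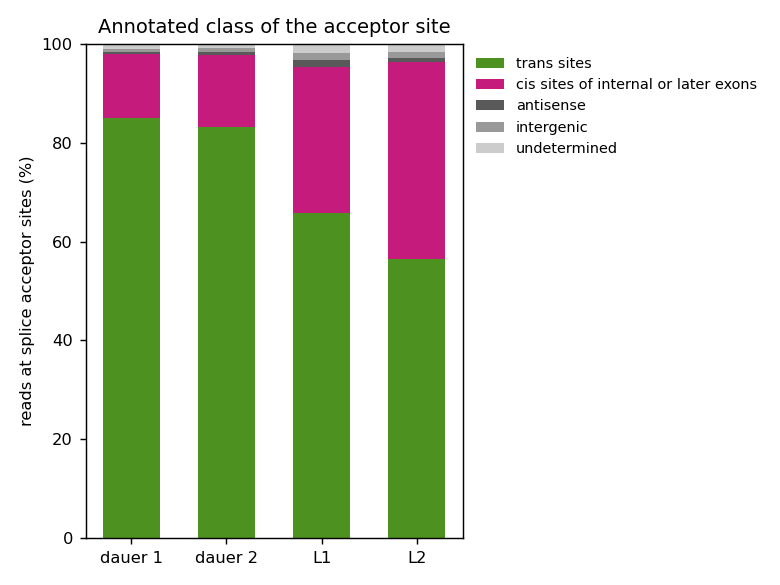
Share of all reads at splice acceptor sites (%) that fell in each annotated class of site, in the 2 dauer, the L1 and the L2 muscle libraries, 1 bar a library. Cis sites took 12.8% and 14.7% in dauer muscle, against 29.6% in L1 and 39.8% in L2.

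Most body-wall muscle markers in the table were read in all 4 libraries, as were some markers of other tissues. Of 15 body-wall muscle markers in the table, 14 and 14 were read in dauer muscle and 13 and 13 in L1 and L2 muscle, and unc-15, the paramyosin gene, had no reads. The myo-3 gene itself, a body-wall myosin heavy chain, had 14.6 and 160.4 normalised CPM (reads scaled to the size of the library) in dauer muscle, against 90.4 and 347.9 CPM in L1 and L2 muscle. These ranges overlap (log2 fold change -1.02 ± 1.66 (SE), adjusted p = 0.845). Of the markers of other tissues in the table, 12 of 13 for the pharynx, 9 of 16 for the intestine, 18 of 33 for hypodermis and cuticle, 12 of 46 for the germline and 5 of 29 for neurons had no reads in any of the 4 libraries. Read in all 4 were 1 pharyngeal, 4 germline and 7 neuronal markers and none of the intestine or hypodermis. Those without reads include myo-2 and pha-4 of the pharynx, elt-2 and ges-1 of the intestine, and eat-4, mec-3, tph-1 and unc-47 of neurons. The summed level of the body-wall muscle list was 6991 and 5549 CPM in dauer muscle, against 39790 and 22630 CPM in L1 and L2. The summed level of the neuronal list was 2245 and 3039 CPM in dauer muscle, against 2196 and 1314 CPM in L1 and L2. For the germline list the sums were 1358 and 1748 CPM in dauer muscle, against 951 and 862 CPM in L1 and L2. In combined CPM they stood the other way, at 1288 and 1802 in dauer muscle, against 4586 and 8591 in L1 and L2, where cis sites held 87.1% and 94.9% of the list's reads. The sums were, for the hypodermal list, 70.5 and 126 CPM against 77.9 and 467 CPM, and, for the intestinal list, 47.6 and 92.3 CPM against 63.9 and 1552 CPM. The last value rests on the saposin gene spp-5, with 1312 CPM in L2 alone. The part of other cell types in the results below was not tested.

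More genes were called higher than lower in dauer muscle. Among 8954 tested genes, 241 (2.69%) were higher and 54 (0.603%) lower at an adjusted p under 0.05 by edgeR's quasi-likelihood test with Benjamini-Hochberg adjustment, and 1760 had an unadjusted p under 0.05. Here L1 and L2 each count as a group and the larval level is the mean of both on the log scale. With L1 and L2 treated as 1 group of 2, 62 genes were higher (0.758% of 8183) and 31 lower (0.379%), all of them also called before. The share of calls that were higher was thus 81.7%, or 66.7% with 1 larval group. The median fitted log2 fold change of all tested genes was 1.35, or 0.28 with 1 larval group, and it was 0.26 in the 2488 genes read in all 4 libraries. The 241 genes called higher hold 87 without reads in either larval library and 93 without reads in 1 of them, so their fitted fold changes depend on edgeR's prior count. Of the 54 called lower, 11 had no reads in either dauer library and 39 had reads in both. All values are shares of a library's tagged reads, and in such bulk RNA fewer cells that carry a transcript and less of it per cell cannot be told apart. Calls also depended on single libraries. Without L2 48 genes were called, without L1 136, without the second dauer library 156 and without the first 524. A fit to the 4 libraries alone called 0 genes, with 1122 at an unadjusted p under 0.05. Counts of called list members below stand against the shares over all tested genes, 2.69% higher and 0.603% lower.

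**Figure D2:**
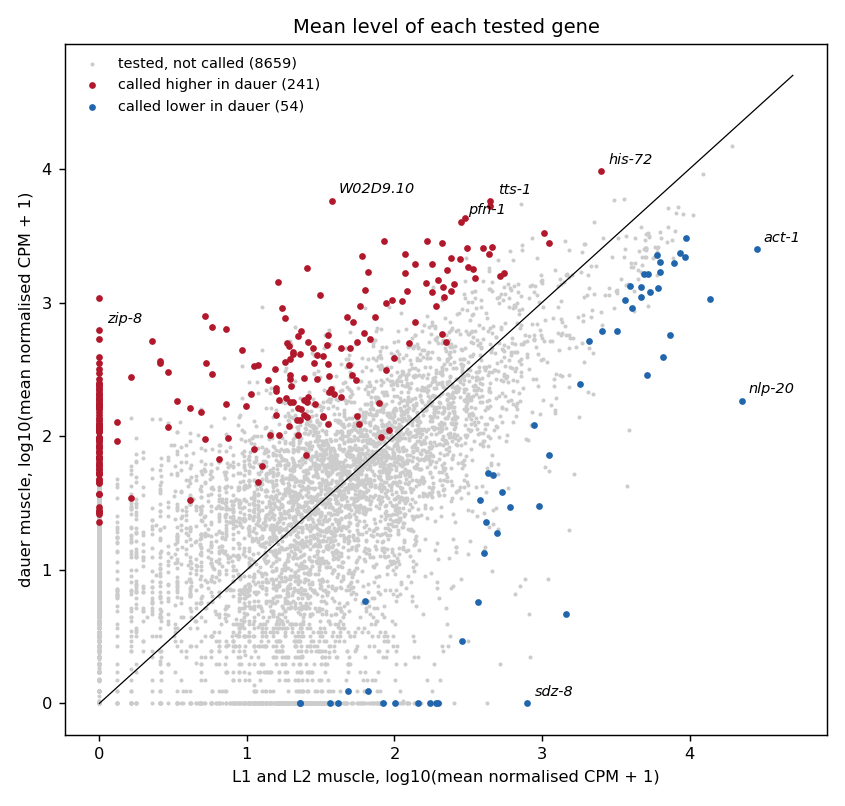
Mean normalised CPM + 1 of each tested gene on log10 scales, dauer muscle (vertical) against L1 and L2 muscle (horizontal), with called genes in colour and a line at equal level. Of the 295 called genes 241 lie above the line and 54 below it, and a column of genes at the left edge has no larval reads.

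Genes called higher were more often in operons, clusters transcribed as 1 unit. Of the 241, 29.5% belonged to an operon, of the 54 called lower 7.41% did, and of all tested genes 19.2%. Operon genes took 20.1% and 17.2% of all reads in dauer muscle, against 11.4% in L1 and 11.8% in L2. Noncoding genes made 6.64% of those called higher, 3.7% of those called lower and 3.41% of all tested. Their share of all reads was 2.47% and 2.1% in dauer muscle, against 1.39% in L1 and 1.56% in L2. The X chromosome held 10.4% of those called higher, 13% of those called lower and 13.7% of all tested genes. The genes called higher had a median level of 211 CPM in dauer muscle, against 12.4 CPM for all tested genes. Those called lower had a median of 1290 CPM in larval muscle, against 8.57 CPM for all tested. The part of expression level in these shares was not tested.

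Several abundant genes of the contractile filaments had far lower levels in dauer muscle. The 30 listed sarcomere genes summed to 11900 and 11030 CPM in dauer muscle, against 82560 CPM in L1 and 46120 CPM in L2, and the mean sums differed by 5.61-fold. The sums of the groups do not overlap. Of 19 tested members 4 fell, act-1, mlc-2, tni-1 and mup-2, and none rose. All 4 were also called with 1 larval group. These 4 genes held most of both larval sums and most of the difference between the sums. Levels of the other members are not summed here. The count of falling members was 2 without L1, 2 without L2, 2 without the first dauer library and 0 without the second. The median log2 ratio of mean levels, with genes that lack reads in a group set at 3 reads over that group, was -1.18 over 16 members, against 0.38 over 7681 tested genes.

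The actin gene act-1, read at a trans site on chromosome V at position 11081052, had 2106 and 2940.5 CPM in dauer muscle, against 37529 and 19450 CPM in L1 and L2 muscle. It was 11.3-fold lower on the mean, with a log2 fold change of -3.42 ± 0.54 (SE) and an adjusted p of 0.0121. Both dauer values lie far below both larval values. C. elegans has several near-identical actin genes, and how the authors' counting split reads between them is not given in the sources used here. Regulatory myosin light chain gene mlc-2, which has the near-identical copy mlc-1, had 1132 and 975 CPM in dauer muscle, against 16398 and 11296 CPM (13.2-fold lower, log2 fold change -3.69 ± 0.61, adjusted p = 0.0166). The troponin I gene tni-1 had 372 and 195 CPM in dauer muscle, against 6469 and 3774 CPM (log2 fold change -4.12 ± 0.84, adjusted p = 0.0327). Troponin T, the subunit that ties the calcium switch to tropomyosin, is encoded by mup-2, which had 609.5 and 175 CPM in dauer muscle, against 8548 and 4606 CPM (log2 fold change -4 ± 0.84, adjusted p = 0.0348). In each of these 4 genes the L1 library was higher than the L2 library.

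Other thin-filament genes lay in the same order without passing the test. The troponin I gene unc-27 had 834 and 534 CPM in dauer muscle, against 3725 and 1397 CPM (adjusted p = 0.106), and the troponin T gene tnt-2 had 104.02 and 68.5 CPM, against 507 and 256 CPM (adjusted p = 0.109). The calponin-like filament protein gene unc-87 had 2300.1 and 1628 CPM, against 5747 and 2817 CPM (adjusted p = 0.252). A further troponin I gene, tni-3, overlapped between groups, with 570.2 and 476 CPM in dauer muscle, against 678 and 42.3 CPM. Of the 19 tested members, 8 lay below and 4 above both larval libraries (11.9% and 24.2% of all tested genes do). Not called either, the tropomodulin gene tmd-2, whose protein caps filament ends, had 498 and 485 CPM in dauer muscle, against 24.9 and 12.8 CPM (adjusted p = 0.0654, or 0.0451 with cis reads added). The cofilin gene unc-60 had 2688 and 2775 CPM, against 2346 and 1560.2 CPM (adjusted p = 0.556), and the actin gene act-2 had 427 and 317 CPM, against 24.9 and 227 CPM (adjusted p = 0.193).

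**Figure D3:**
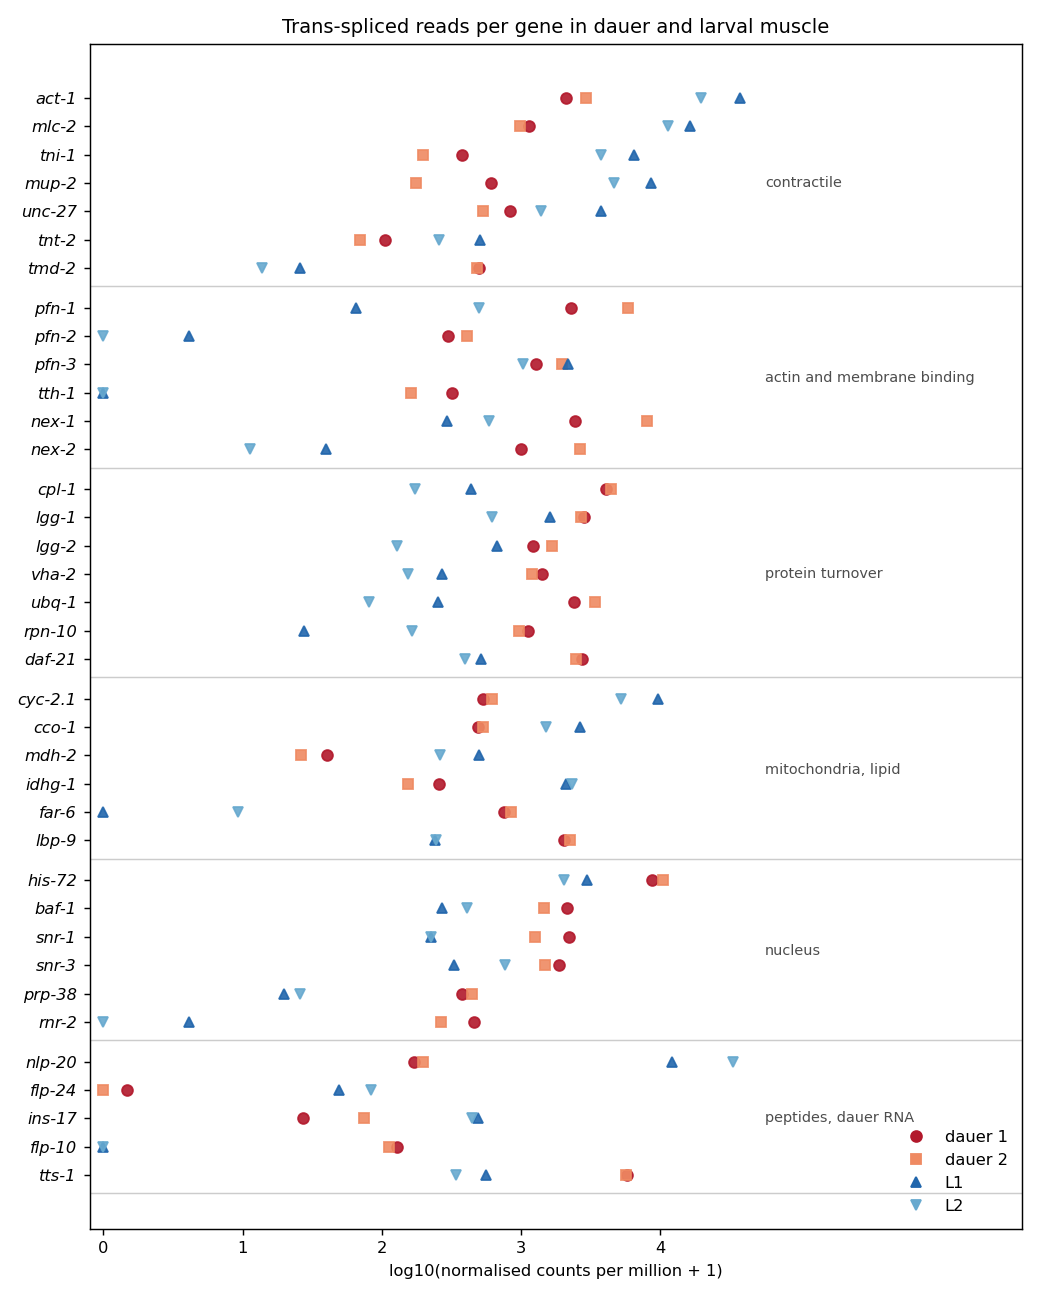
Level of each named gene in each library as log10(normalised CPM + 1), with red and orange markers for the 2 dauer libraries and blue markers for L1 and L2, grouped by role. The act-1 points are at 2106 and 2941 CPM in dauer muscle and at 37529 and 19450 CPM in L1 and L2, and genes without reads in a library sit at 0.

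Attachment genes did not pass the test in either direction. The 28 listed genes of dense bodies and M-lines summed to 3488 and 3751 CPM in dauer muscle, against 9494 and 5453 CPM. Of 24 tested members 9 lay below and 3 above both larval libraries (11.9% and 24.2% of all tested genes do). The immunoglobulin-repeat protein gene dim-1 had 147 and 279 CPM in dauer muscle, against 2913 and 1179.6 CPM (adjusted p = 0.0627), and the parvin gene pat-6 259.6 and 214 CPM, against 1186 and 689 CPM (adjusted p = 0.106). The PINCH gene unc-97 had 89.9 and 76.0 CPM, against 459.8 and 404 CPM (adjusted p = 0.247). The paxillin gene pxl-1 stood the other way, at 391 and 381 CPM in dauer muscle, against 143 and 46.1 CPM (log2 fold change 2.25 ± 0.93, adjusted p = 0.236, or 0.68 and 0.586 with cis reads added).

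In excitation and calcium handling, 2 of 23 tested genes rose, sca-1 and nra-1. The calcium pump of the sarcoplasmic reticulum, sca-1, had 90.9 and 96.6 CPM in dauer muscle, against 0 and 8.33 CPM (adjusted p = 0.0462). The acetylcholine-receptor-associated gene nra-1 had 266 and 166 CPM in dauer muscle, against 29.6 and 0 CPM (adjusted p = 0.0338). Both lack reads in 1 larval library, and neither was called with 1 larval group (adjusted p = 0.195 for sca-1 and 0.281 for nra-1), without L1, without L2 or without the second dauer library. Calsequestrin, the calcium store protein encoded by csq-1, had 21.4 and 22.4 CPM in dauer muscle, against 402 and 111 CPM (log2 fold change -3.27 ± 0.82, adjusted p = 0.0658, or -1.73 and 0.269 with cis reads added). The muscle transcription factor gene unc-120, an SRF homologue, had 613 and 488 CPM in dauer muscle, against 198 and 189.7 CPM (log2 fold change 1.51 ± 0.97), and with cis reads added its log2 fold change was -0.42.

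Several genes for actin-monomer and membrane-binding proteins rose. Except tth-1, they were chosen after their values were seen. Profilins deliver actin monomers, and of the 3 profilin genes 2 rose. Gene pfn-1 had 2268 and 5809 CPM in dauer muscle, against 63.9 and 498 CPM (log2 fold change 4.5 ± 0.53, adjusted p = 0.00451), and with 1 larval group its adjusted p was 0.0521. Gene pfn-2, read at a trans site on the X chromosome at position 5354072, had 297 and 405 CPM in dauer muscle, against 3.12 and 0 CPM in L1 and L2 (adjusted p = 0.00425). The third, pfn-3, had 1279 and 1949.5 CPM in dauer muscle, against 2164 and 1028 CPM, with overlapping groups (log2 fold change 0.11 ± 0.61). Thymosin beta proteins bind actin too, and their gene tth-1 (X chromosome, position 8423731) had 319 and 162 CPM in dauer muscle and no reads in L1 or L2, at least 176-fold higher by a floor of 3 reads over the larval group, which covers counting error only, or 51.4-fold without L2. Such bounds scale with the depth of the group without reads, so each is also given without its deeper library. The floor counts every library as able to detect the gene. The authors' deposited table gives tth-1 a larval mean of 178 and a dauer mean of 301, with a ratio of 1.69. Both pfn-2 and tth-1 stayed called in 13 of 14 alternative settings, all but the fit to the 4 libraries alone.

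Annexins bind membranes when calcium rises. The annexin gene nex-1 (chromosome III, position 5225623) had 2434 and 8060.4 CPM in dauer muscle, against 293 and 588 CPM, 11.9-fold higher on the mean (log2 fold change 3.66 ± 0.63, adjusted p = 0.0166). Gene nex-2 (chromosome III, position 10330422) had 995 and 2644 CPM in dauer muscle, against 39.0 and 10.3 CPM (73.9-fold higher, log2 fold change 6.5 ± 0.97, adjusted p = 0.0113). In both genes the second dauer library was the higher of the pair, and both dauer libraries lay above both larval libraries. Both lost their call without L2, and nex-1 also without L1 or without the second dauer library. Filamin, an actin cross-linker encoded by fln-1, had 213 and 148 CPM, against 37.4 and 11.53 CPM (adjusted p = 0.0327), and it was not called with 1 larval group (adjusted p = 0.0977).

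Most ribosomal protein genes lay lower in dauer muscle than in both larval libraries. The 78 genes of the cytosolic ribosome summed to 171100 and 155300 CPM in dauer muscle, against 305800 CPM in L1 and 430700 CPM in L2, 2.26-fold lower in dauer muscle on the mean. Both dauer sums lie below both larval sums. The median gene had 2010 and 1960 CPM in dauer muscle, against 4000 CPM in L1 and 5560 CPM in L2. Of 76 tested genes, 68 lay below both larval libraries (11.9% of all tested genes do), 4 above and 4 overlapped. By the test 17 fell, with log2 fold changes of -2.24 to -1.4, and 1 rose. With 1 larval group 6 fell and none rose. Without L1 15 fell, without L2 1, without the first dauer library 6 and without the second 1. The median log2 ratio was -1.23 over the 76 genes. When cis reads were added and levels taken as shares of all trans and cis reads, the list's ratio of dauer over larval muscle was 0.743, against 0.443 in the gene counts, and in the fit with cis reads 13 genes fell.

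The 40S gene rps-22 (chromosome III, position 1950660) had 1268 and 1321 CPM in dauer muscle, against 6396 and 5877 CPM, and was 4.74-fold lower on the mean (log2 fold change -2.24 ± 0.34, adjusted p = 0.0121). It was called in 13 of 14 alternative settings. Another 40S gene, rps-25, had 2441 and 1975 CPM in dauer muscle, against 5794 and 12803 CPM (adjusted p = 0.0144). For the 60S gene rpl-6 the values were 1155 and 1050 CPM in dauer muscle, against 4918 and 4511 CPM (adjusted p = 0.0166). The values of rps-19 were 2029.8 and 1966 CPM in dauer muscle, against 3819 and 8845 CPM (adjusted p = 0.0166), and those of rpl-9 were 2947 and 3129.7 CPM, against 9388 and 9439 CPM (adjusted p = 0.0219). The member that rose was rpl-11.1, 1 of a pair of paralogues for the same 60S protein, with 1326 and 1638 CPM in dauer muscle, against 96.6 and 299 CPM (adjusted p = 0.0243). How reads shared with its paralogue rpl-11.2 were counted is not given in the sources used here.

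**Figure D4:**
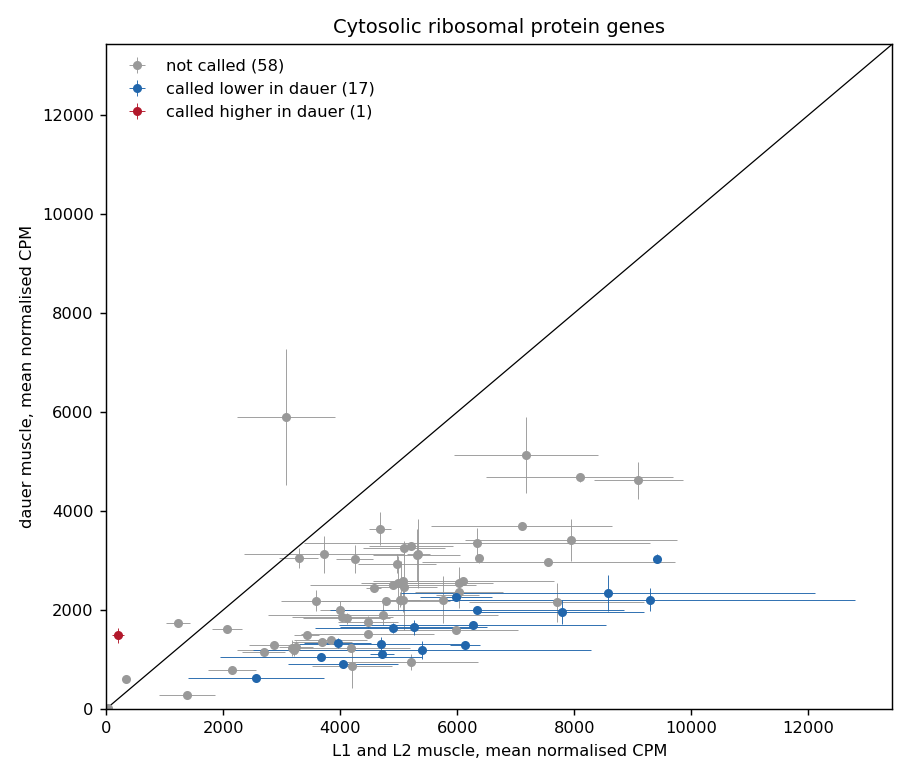
Mean normalised CPM of each of the 76 tested cytosolic ribosomal protein genes, dauer muscle (vertical) against L1 and L2 muscle (horizontal). Bars span the 2 libraries of each group, the line marks equal level, and 17 genes called lower and 1 called higher are coloured.

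In other parts of the translation apparatus no gene passed the test. Of 31 tested translation factors 8 lay above and 8 below both larval libraries (24.2% and 11.9% of all tested genes do), and the sums were 9984 and 8315 CPM in dauer muscle, against 9978 and 12100 CPM. The ratio of these sums was 0.829, and 1.34 in combined CPM. The eIF5A gene iff-2 had 374 and 347 CPM in dauer muscle, against 2123 and 1750.5 CPM (adjusted p = 0.066). The elongation factor gene eef-1A.2, which has a near-identical copy, had 1109.7 and 712 CPM in dauer muscle, against 380.3 and 335 CPM (adjusted p = 0.127). Of 63 mitochondrial ribosomal protein genes 32 lay below both larval libraries and 11 above. Their sums were 6810 and 5508 CPM in dauer muscle, against 10600 and 9265 CPM, a ratio of 0.62, and in combined CPM the ratio was 1.02, with overlapping groups. Of 25 tested nucleolar and ribosome biogenesis genes 7 lay on either side.

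Genes of mitochondrial energy metabolism were lower in summed CPM, and few passed the test. The oxidative phosphorylation list summed to 13390 and 13030 CPM in dauer muscle, against 39740 and 24440 CPM in L1 and L2, and of 37 tested members 2 fell and 1 rose. The citrate cycle list summed to 3715 and 2503 CPM, against 10450 and 7242 CPM, and of 27 tested members 1 fell. Below both larval libraries lay 18 and 15 of these members (11.9% of all tested genes do). The ratios of dauer over larval sums were 0.412 and 0.351, and in combined CPM 0.661 and 0.549. On that scale the oxidative phosphorylation sums were 12210 and 12410 in dauer muscle, against 24830 and 12420 in L1 and L2, so that L2 was level with dauer muscle. Cytochrome c, the electron carrier encoded by cyc-2.1 (chromosome IV, position 4748449), had 527 and 619.9 CPM in dauer muscle, against 9576 and 5200.2 CPM (12.9-fold lower, log2 fold change -3.62 ± 0.74, adjusted p = 0.0327), and it was also called with 1 larval group (adjusted p = 0.0441). The cytochrome oxidase subunit gene cco-1 had 491 and 532 CPM in dauer muscle, against 2645 and 1503 CPM (adjusted p = 0.0348, or 0.0503 with cis reads added). Mitochondrial malate dehydrogenase, mdh-2, had 39.4 and 25.2 CPM in dauer muscle, against 499 and 260.1 CPM (adjusted p = 0.0358). In all 3 genes both dauer values lie below both larval values, and each lost its call when either larval library was left out.

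The isocitrate dehydrogenase subunit gene idhg-1 had 257 and 153 CPM in dauer muscle, against 2101 and 2319.5 CPM (adjusted p = 0.0662), and the succinate dehydrogenase gene mev-1 146 and 171 CPM, against 1057 and 292 CPM (adjusted p = 0.101). The ATP synthase subunit gene asb-1 rose, with 101 and 137 CPM in dauer muscle, against 0 and 36.5 CPM (adjusted p = 0.0338), but was not called with 1 larval group (adjusted p = 0.325). In glycolysis 1 of 24 tested genes rose. The sums of the list overlapped, at 4808 and 3141 CPM in dauer muscle and 6360 and 4051 CPM in L1 and L2. Their ratio was 0.764, and 1.18 in combined CPM. The gene that rose, pfk-1.1 for phosphofructokinase, had 39.9 and 49.03 CPM in dauer muscle and no reads in L1 or L2, at least 32.6-fold higher by the same floor, or 9.51-fold without L2 (adjusted p = 0.0418), and it was not called with 1 larval group or when either larval library was left out. The glyceraldehyde phosphate dehydrogenase gene gpd-3, which has a near-identical copy in gpd-2, had 1628 and 877 CPM in dauer muscle, against 408 and 478 CPM (adjusted p = 0.16). Aldolase gene aldo-1 had 811 and 637 CPM, against 2455 and 1321 CPM (adjusted p = 0.238).

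Single lipid carriers rose in dauer muscle, and the sums of their list overlapped. The 47 listed fatty acid and lipid genes summed to 21060 and 20570 CPM in dauer muscle, against 27850 and 18400 CPM, mostly from the fatty acid and retinol binding protein gene far-1. The ratio was 0.9, and 1.46 in combined CPM. Gene far-1 had 15226 and 14263 CPM in dauer muscle, against 23698 and 15409 CPM (adjusted p = 0.588). Its relative far-6 rose, at 753 and 839 CPM in dauer muscle, against 0 and 8.33 CPM in L1 and L2 (adjusted p = 0.0121). It lost its call with 1 larval group (adjusted p = 0.0541) and without L1. Gene lbp-9, which encodes an intracellular lipid-binding protein and was chosen after its values were seen, had 2024 and 2259.7 CPM in dauer muscle, against 238 and 245 CPM. It was 8.86-fold higher on the mean, with a log2 fold change of 3.15 ± 0.46 and an adjusted p of 0.0108, and within each group its libraries lay close together. It was also called with 1 larval group and lost its call without L2 and in the fit to the 4 libraries alone.

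Genes of protein turnover had higher sums in dauer muscle. Of 37 tested autophagy and lysosome genes 3 rose, cpl-1, lgg-1 and vha-2, and none fell (2.69% and 0.603% of all tested genes did). The list summed to 13430 and 12980 CPM in dauer muscle, against 5258 and 4405 CPM. Its median log2 ratio was 0.67 over 34 members, against 0.38 over 7681 tested genes. The lysosomal protease gene cpl-1, a cathepsin L, had 4088 and 4446 CPM in dauer muscle, against 433 and 170.4 CPM (14.1-fold higher, adjusted p = 0.0455). The Atg8 family gene lgg-1, whose product coats forming autophagosomes, had 2841 and 2689.5 CPM in dauer muscle, against 1616 and 619.6 CPM (adjusted p = 0.0424). Proton pump subunit gene vha-2, which has a near-identical copy, had 1399 and 1201 CPM in dauer muscle, against 269.7 and 152 CPM (adjusted p = 0.0363). None of the 3 was called with 1 larval group, with adjusted p-values of 0.0841, 0.179 and 0.0686 in the same order. The second Atg8 gene lgg-2 had 1213 and 1677 CPM, against 670.3 and 127 CPM (log2 fold change 2.31 ± 0.55, adjusted p = 0.0527, or 0.82 and 0.4 with cis reads added), and the cargo receptor gene sqst-1 684 and 523 CPM, against 63.9 and 33.3 CPM (adjusted p = 0.0769).

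All 32 listed proteasome genes were tested, and 16 lay above both larval libraries against 2 below (24.2% and 11.9% of all tested genes do). Their median log2 ratio was 0.49, near the 0.38 of all tested genes. Only rpn-10, a ubiquitin receptor of the proteasome, passed the test, at 1111 and 958 CPM in dauer muscle, against 26.5 and 164 CPM (adjusted p = 0.0205), and it was not called with 1 larval group. Polyubiquitin gene ubq-1, chosen after its values were seen, had 2384 and 3399 CPM in dauer muscle, against 253 and 79.5 CPM (17.4-fold higher, log2 fold change 4.35 ± 0.74, adjusted p = 0.0166, or 0.0398 with 1 larval group). Among 29 tested chaperones 1 gene rose, daf-21, which encodes Hsp90 and is a gene of dauer formation. It had 2718 and 2462 CPM in dauer muscle, against 518 and 396 CPM (adjusted p = 0.0383). It was not called with 1 larval group (adjusted p = 0.0541) or when any 1 of the 4 libraries was left out. The small heat shock gene hsp-25 had 149 and 45.5 CPM, against 681 and 343 CPM (adjusted p = 0.0782).

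Of 23 tested antioxidant and detoxification genes sod-4, an extracellular superoxide dismutase, was called higher, with 318 and 90.5 CPM in dauer muscle, against 0 and 76.2 CPM (adjusted p = 0.022). It had no reads in L1, and the call was lost without L1 and with 1 larval group. The methionine sulfoxide reductase gene msra-1 had 161 and 114 CPM in dauer muscle, against 3071 and 493 CPM (adjusted p = 0.0771). The glutathione peroxidase gene gpx-1 had 37.4 and 0 CPM, against 2896 and 139.7 CPM (adjusted p = 0.236).

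Chromatin and splicing genes that passed the test were all higher in dauer muscle. Of 20 tested chromatin genes 4 rose, his-72, baf-1, hil-1 and hpl-2 (2.69% of all tested genes did). The list summed to 17130 and 17900 CPM in dauer muscle, against 9212 and 4936 CPM. Its median log2 ratio was 0.5 over 20 members, near the 0.38 of all tested genes. The replacement histone H3.3 gene his-72 (chromosome III, position 12368164) had 8660.4 and 10477 CPM in dauer muscle, against 2980.4 and 2027 CPM (log2 fold change 1.96 ± 0.37, adjusted p = 0.0243). It shares nearly all of its protein sequence with his-71, and how shared reads were counted is not given in the sources used here. Gene baf-1, for a DNA-bridging protein of the nuclear envelope, had 2123 and 1452 CPM in dauer muscle, against 271 and 404 CPM (adjusted p = 0.03). Both were also called with 1 larval group. The linker histone gene hil-1 had 399.6 and 279 CPM, against 21.8 and 0 CPM (adjusted p = 0.0121), and the heterochromatin protein gene hpl-2 293 and 183 CPM, against 0 and 37.8 CPM (adjusted p = 0.0166). Both lack reads in 1 larval library and were not called with 1 larval group. Without L1 or without L2, 1 of the 4 stayed called.

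Among 35 tested splicing genes 7 rose and none fell (2.69% and 0.603% of all tested genes did). Above both larval libraries lay 20, against 1 below (24.2% and 11.9% of all tested genes do). The list summed to 11670 and 10160 CPM in dauer muscle, against 4114 and 5562 CPM, with a median log2 ratio of 1.12 over 33 members. The Sm core protein gene snr-1 had 2212 and 1264 CPM in dauer muscle, against 226 and 226 CPM (7.70-fold higher, log2 fold change 2.94 ± 0.43, adjusted p = 0.011), and of the 7 it alone was called with 1 larval group. Of its partners in the Sm ring, snr-2 had 570.2 and 599 CPM in dauer muscle, against 45.2 and 374 CPM (adjusted p = 0.0268), and snr-3 had 1857 and 1491 CPM, against 329 and 766 CPM (adjusted p = 0.0435). Both spliceosome factor genes prp-38 and prp-31 rose. Gene prp-38 had 377 and 442 CPM in dauer muscle, against 18.7 and 24.99 CPM (adjusted p = 0.0327), and prp-31 had 459 and 209 CPM, against 20.3 and 0 CPM (adjusted p = 0.0121). The other 2 were snrp-200 and the splicing regulator fox-1. The number called was 2 without L1, 1 without L2, 6 without the first dauer library, 2 without the second and 2 with the replicate block.

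Replication and cell cycle genes had a higher sum in dauer muscle. Of 50 tested replication and cell cycle genes, rnr-2 and psf-1 rose (2.69% of all tested genes did), and 13 lay above both larval libraries (24.2% of all did). The list summed to 4242 and 4150 CPM in dauer muscle, against 1602 and 1879 CPM. Its median log2 ratio was 0.45 over 42 members, near the 0.38 of all tested genes. The ribonucleotide reductase gene rnr-2 had 459.8 and 262 CPM in dauer muscle, against 3.12 and 0 CPM (log2 fold change 9.57 ± 1.37, adjusted p = 0.0121, or 7.99 and 0.0191 with cis reads added). The GINS complex gene psf-1, which helps start replication forks, had 100.1 and 38.4 CPM in dauer muscle and no reads in L1 or L2, at least 50.8-fold higher, or 14.8-fold without L2 (adjusted p = 0.00757). Both were also called with 1 larval group, but not without L2. The replication protein A gene rpa-2 had 1350.3 and 1549.5 CPM, against 281 and 315 CPM (adjusted p = 0.0809). The cell cycle inhibitor gene cki-1 had 335 and 645 CPM in dauer muscle, against 37.4 and 33.3 CPM (adjusted p = 0.144). The germline marker sums, given above, were higher in dauer libraries in the gene counts and lower with cis reads, and their part in these values was not tested.

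In the list of insulin, TGF-beta and dauer signalling, tts-1 and aak-1 rose among 32 tested genes, and none fell. The list summed to 10160 and 9912 CPM in dauer muscle, against 4843 and 3692 CPM in L1 and L2. Most of that difference is tts-1. The long noncoding RNA tts-1, known for its abundance in dauers, was read at a trans site on the X chromosome at position 1504624. It had 5801 and 5695 CPM in dauer muscle, against 555 and 338 CPM in L1 and L2, 12.9-fold higher on the mean (log2 fold change 3.73 ± 0.46, adjusted p = 0.00505). The dauer libraries lay within a few percent of each other, and the call held in 13 of 14 alternative settings, all but the fit to the 4 libraries alone. The AMP-activated kinase subunit gene aak-1 had 205 and 149 CPM in dauer muscle and no reads in L1 or L2, at least 130.1-fold higher, or 37.9-fold without L2 (adjusted p = 0.0383), and was not called with 1 larval group (adjusted p = 0.071). The FOXO factor gene daf-16 had 61.2 and 55.5 CPM in dauer muscle, against 0 and 4.49 CPM (log2 fold change 6.68 ± 2.35, adjusted p = 0.171, or 1.58 and 0.33 with cis reads added). The steroid receptor gene daf-12 had 15.6 and 90.0 CPM in dauer muscle and no reads in either larval library (adjusted p = 0.184). The insulin-like peptide gene ins-17 fell, with 26.2 and 73.9 CPM in dauer muscle, against 488 and 445 CPM (9.32-fold lower, adjusted p = 0.0371), and its call was lost whichever of the 4 libraries was left out.

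Neuropeptide genes changed in both directions. Of 50 tested, 5 fell and 3 rose, and the list summed to 872 and 698 CPM in dauer muscle, against 13290 CPM in L1 and 34270 CPM in L2. Most of that difference is nlp-20, a peptide gene read mainly at a trans site on chromosome IV at position 7643071. It had 170.1 and 197 CPM in dauer muscle, against 12057 and 33049 CPM, 123-fold lower on the mean (log2 fold change -6.76 ± 0.38, adjusted p = 4.45e-05). Both dauer values lie far below both larval values, and the call held in 13 of 14 alternative settings, all but the fit to the 4 libraries alone. The FMRFamide-like gene flp-24 had 0.486 and 0 CPM in dauer muscle, with 1 read in all, against 48.3 and 82.0 CPM (adjusted p = 0.00505). Gene nlp-11 had no reads in dauer muscle, against 3.12 and 40.4 CPM, at least 92.4-fold lower by a floor of 3 reads over the dauer group (or 14.9-fold without the second dauer library, adjusted p = 0.00425). In combined CPM it had 3.18 and 1.28 in dauer muscle, against 2.07 and 21.7, and these ranges overlap (log2 fold change -2.19, adjusted p = 0.0931). Gene flp-11, known for its part in sleep, had none either, against 21.8 and 59.6 CPM, at least 173-fold lower, or 27.9-fold without the second dauer library (adjusted p = 0.0166).

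The pigment-dispersing factor homologue pdf-1 had no reads in dauer muscle, against 14.03 and 57.7 CPM, at least 152-fold lower, or 24.6-fold without the second dauer library (adjusted p = 0.0424). It was called in only 5 of 14 alternative settings, and with cis reads added it had 9.98 and 0 combined CPM in dauer muscle, against 32.1 and 31.02 (log2 fold change -3.3, adjusted p = 0.334). The 3 genes that rose had no reads in L1 or L2. Gene flp-10 had 128 and 112.2 CPM in dauer muscle, at least 88.3-fold higher, or 25.7-fold without L2 (adjusted p = 0.00619). Gene flp-28 had 15.6 and 34.8 CPM, at least 18.5-fold higher, or 5.38-fold without L2 (adjusted p = 0.0144), and nlp-47 131 and 135 CPM, at least 97.6-fold higher, or 28.4-fold without L2 (log2 fold change 10.87 ± 2.46, adjusted p = 0.0433, or 6.5 and 0.0824 with cis reads added). Both flp genes were also called with 1 larval group. All 8 genes are best known from neurons, whose marker sums are given above, and the part of neuronal RNA in these values was not tested.

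**Figure D5:**
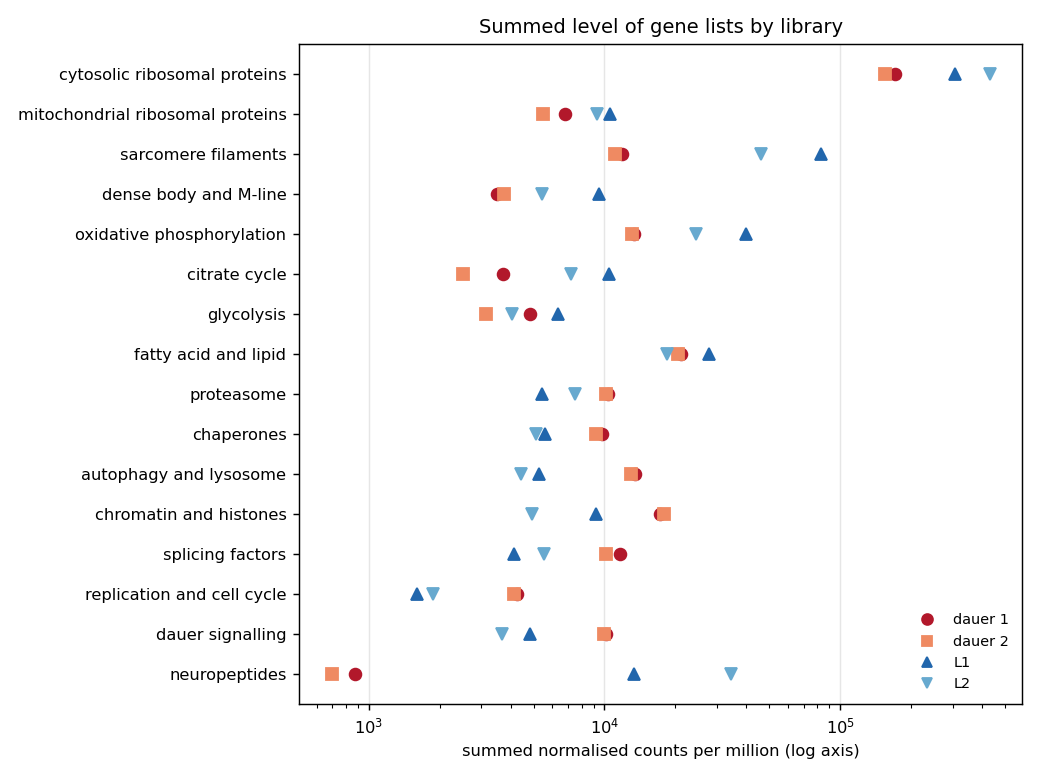
Summed normalised CPM of 16 gene lists in each library on a log axis, with red and orange markers for the 2 dauer libraries and blue markers for L1 and L2. Ribosomal, sarcomere and neuropeptide sums lie lower in both dauer libraries than in L1 and L2, and proteasome, autophagy, chromatin, splicing and dauer signalling sums lie higher. Most of the sarcomere difference is in act-1, mlc-2, tni-1 and mup-2. The neuropeptide difference is mostly nlp-20, and the dauer signalling difference is mostly tts-1.

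The largest fitted increases were in genes without larval reads. Gene zip-8, a bZIP transcription factor gene read at a trans site on chromosome III at position 6478961, had 677 and 564 CPM in dauer muscle, at least 456-fold higher, or 133-fold without L2 (adjusted p = 0.00531). The calponin gene cpn-4 had 386 and 245 CPM in dauer muscle, at least 231.7-fold higher, or 67.5-fold without L2 (adjusted p = 0.0158). For tag-77 the values were 246 and 459 CPM and at least 259-fold, or 75.4-fold without L2 (adjusted p = 0.00619), and for the small GTPase gene ras-2 347 and 139 CPM and at least 178-fold, or 51.97-fold without L2 (adjusted p = 0.0121). Tubulin gene tba-4, an alpha-tubulin, had 211 and 209.6 CPM in dauer muscle, at least 154-fold higher, or 44.97-fold without L2 (adjusted p = 0.0243). The microtubule regulator gene rmd-1 had 253 and 136 CPM, at least 143-fold higher, or 41.6-fold without L2 (adjusted p = 0.00425). Gene elpc-3, a subunit of the Elongator complex, had 201 and 207 CPM (at least 149.9-fold, or 43.7-fold without L2, adjusted p = 0.0417), the F-box gene fbxa-115 240.1 and 164 CPM (at least 148-fold, or 43.2-fold without L2, adjusted p = 0.0144) and ekl-6 194 and 268 CPM (at least 169.7-fold, or 49.4-fold without L2, adjusted p = 0.0352). In tth-1 and in these 9 genes no larval library had a read, and only elpc-3 and ekl-6 were not called with 1 larval group. Without L2, however, all of them except tth-1, zip-8 and rmd-1 lost their call. Genes cpn-4, tba-4, elpc-3 and ekl-6 lost it without L1 too. The floor of 3 reads does not cover genes lost in preparing a library. Of all genes counted, tested or not, 871 were read in both dauer libraries and in neither larval library, and 71 the other way round. These counts take any read and do not adjust for depth. The dauer libraries had 1974529 and 9587967 reads, against 709137 in L1 and 1815663 in L2. The second dauer library, with the most reads, had reads in 4569 genes, against 7945 in the first. The part of depth and of lost genes in these counts was not tested.

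Among microtubule genes the beta-tubulin gene tbb-6 was also called higher, with 592 and 285 CPM in dauer muscle, against 0 and 16.7 CPM (adjusted p = 0.0166, or 0.102 with 1 larval group). The trafficking GTPase gene rab-8 had 266 and 454 CPM in dauer muscle, against 34.3 and 0 CPM (adjusted p = 0.00505, or 0.17 with 1 larval group), and was the only 1 of 29 tested genes of its list to pass. The germline RNA-binding protein gene mex-3 was called higher in the gene counts, with 353 and 589 CPM in dauer muscle, against 35.9 and 0.641 CPM (log2 fold change 6.54 ± 1.35, adjusted p = 0.0327). Its cis acceptor at exon 2 went the other way, with 67 and 1151 reads in dauer muscle, against 4102 in L1 and 25193 in L2. With cis reads added the gene was lower in dauer muscle, with a log2 fold change of -4.04 and an adjusted p of 0.00529. No direction is therefore given for mex-3.

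Fewer genes were read in larval muscle alone than in dauer muscle alone, in counts not adjusted for depth. Gene sdz-8 (chromosome V, position 11516191) had no reads in dauer muscle, against 1261 and 324 CPM in L1 and L2, at least 3367-fold lower by the floor over the dauer group, or 544-fold without the second dauer library (adjusted p = 0.0103). The stomatin gene sto-2 (X chromosome, position 5311763), whose relatives shape membrane channels, had none, against 101 and 246 CPM, at least 738-fold lower, or 119.1-fold without the second dauer library (adjusted p = 0.0121). Both were called in 13 of 14 alternative settings. The saposin-like gene spp-9 had none, against 49.9 and 239 CPM (at least 614-fold lower, or 99.0-fold without the second dauer library, adjusted p = 0.0327), and the short peptide gene nlp-34 none, against 45.2 and 349 CPM (at least 836-fold lower, or 135-fold without the second dauer library, adjusted p = 0.0327, or 0.0555 with 1 larval group). The annotated pseudogene tag-348 was read in all libraries, with 16.53 and 41.7 CPM in dauer muscle, against 1171 and 723 CPM (32.5-fold lower, log2 fold change -4.97 ± 0.91, or -6.17 with cis reads added, adjusted p = 0.0371, or 0.0565 with 1 larval group). Its reads fell at 6 trans sites, with 43.6% at the main one (chromosome V, position 12236840). That site lies upstream of myo-3, which starts at position 12234343 on the minus strand and whose promoter drives the tag. A part of transgene RNA in these reads was not tested. The DNA damage checkpoint gene mrt-2 had 22.4 and 13.2 CPM in dauer muscle, against 405 and 591 CPM (28.01-fold lower, adjusted p = 0.0144).

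Uncharacterised genes were among the most abundant that rose, and were chosen after their values were seen. W02D9.10 had 6313 and 5280.4 CPM in dauer muscle, against 21.8 and 51.3 CPM, 159-fold higher on the mean (log2 fold change 7.43 ± 0.56, adjusted p = 0.000453). Y94H6A.10 had 2219.9 and 2229 CPM in dauer muscle, against 35.9 and 82.7 CPM, 37.5-fold higher (log2 fold change 5.35 ± 0.46, adjusted p = 0.00106). In both the dauer libraries lie close together and far above both larval libraries. T21F4.1 had 767 and 1407 CPM in dauer muscle and no reads in L1 or L2, at least 798-fold higher, or 232.4-fold without L2 (adjusted p = 0.00619). With cis reads added it had 731 and 1384 combined CPM in dauer muscle, against 32.1 and 31.02, with a log2 fold change of 4.54 and an adjusted p of 0.0269. All 3 calls held in 13 of 14 alternative settings. The Ro60 RNA-binding protein gene rop-1 had 951 and 1894 CPM in dauer muscle, against 23.4 and 7.05 CPM (log2 fold change 6.78 ± 0.98, adjusted p = 0.0121), and lost its call without L2.

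Some further lists had no gene that passed the test, among them basement membrane (8 tested), desiccation and storage (10), collagens (18), transthyretin-related proteins (27), nuclear hormone receptors (84) and glutathione transferases (17). Of the tested nuclear hormone receptors, 22 lay above both larval libraries and 3 below (24.2% and 11.9% of all tested genes do).

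Young adult muscle of the same series, which entered the fit but not the comparison, gave levels for several of these genes without a test. The act-1 level was 44620 and 44160 CPM in its 2 libraries and the mlc-2 level 16060 and 16660 CPM, near the larval and far from the dauer values. For tts-1 it was 108 and 105 CPM and for W02D9.10 418 and 555 CPM, below dauer muscle in both cases. Gene nlp-20 had 2765 and 2759 CPM, between dauer and larval muscle. Gene cpn-4, without larval reads, had 361 and 572 CPM, which overlaps the dauer values. In muscle of day 12 adults, kept with fluorodeoxyuridine, act-1 had 569 and 2235 CPM, below or within the dauer values. The mlc-2 level there was 2553 and 10220 CPM, between dauer and larval muscle. For tts-1 it was 1124 and 2127 CPM, for W02D9.10 1600 and 1397 CPM and for nlp-20 1433 and 2637 CPM, also in between. Gene cpn-4 had 360 and 370 CPM, within the dauer values. Gene tth-1 had 50.1 and 53.0 CPM in young adult and 507 and 363 CPM in day 12 muscle.

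Which trans site a gene used was compared within genes, a measure that gene totals do not hold. Over 437 sites in 211 genes, edgeR's diffSpliceDGE called 0 genes (0% of those tested), and 34 had an unadjusted p under 0.05. Leaving out 1 library gave 0 or 1 called gene. Among 120 genes with at least 20 site reads in each library, the most used site was the same in all 4 libraries in 78 (65%). In 90 genes both groups were uniform within themselves, and in 12 of these dauer and larval muscle had different main sites. The 5 genes with the smallest p all had an adjusted p of 0.271.

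In K02D10.1, a site downstream of the first held 35.9% and 62.1% of the gene's site reads in dauer muscle, against 0% and 0% in L1 and L2 muscle. The 2 sites lie at positions 8769536 and 8773145 of chromosome III on the plus strand, and the 137 and 608 larval reads allow at most 2.66% and 0.605% at the second (upper bounds of exact Clopper-Pearson 95% intervals, which cover counting error only). In the kinase gene mak-1, the upstream of its 2 sites (chromosome II, position 8744077, plus strand) held 89.2% and 90.7% in dauer muscle, against 26.8% in L1 and 57.1% in L2. In hlh-30, which encodes the TFEB-like regulator of autophagy and lysosome genes, the site at position 4027063 of chromosome IV held 53.1% and 33.1% in dauer muscle, against 86.6% in L1 and 92.1% in L2. The ath-1 gene used an upstream site for 91.2% and 63.9% of its reads in dauer muscle, against 0% and 0% of 44 and 62 larval reads. In Y17G7B.20 a minor site close to the main one held 0% and 0% in dauer muscle, against 12.4% and 7.66% in L1 and L2. None of these 5 differences passed the adjustment.

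The authors' deposited table of larvae and dauer lists 8104 genes, of which it calls 193 higher and 138 lower in dauer, with adjusted p-values of up to 0.242. Of its higher calls 118 were also called here, 61.1% of the authors' and 49% of those found here, and of its lower calls 22, which are 15.9% and 40.7%. No gene was called in opposite directions. In the authors' deposited table nlp-20 has a mean of 238 in dauer and 61600 in larvae, with a ratio of 0.00387, and tts-1 has 7400 in dauer and 425 in larvae, with a ratio of 17.4. The authors' deposited table gives act-1 a ratio of 0.155 with an adjusted p of 0.249 and no call. Its dauer means lie within 1% of a weighted sum of the 2 dauer columns for 7756 of 7757 genes. Its larval means, which the header assigns to L2, lie within 1% of such a sum of L1 and L2 for 32 of 5686 genes and are above 0 for 389 genes without reads in either. Several of the genes named above are among them. For tth-1 the means are 178 in larvae and 301 in dauer, for psf-1 77.7 and 85.8, and for flp-10 89.2 and 154. Those of ras-2 are 84.6 and 301, of fbxa-115 38.9 and 256, and of T21F4.1 59.4 and 1440. Smaller larval means stand for aak-1 (4.57) and pfk-1.1 (2.29). The larval mean is 0 for zip-8, tag-77, cpn-4, ekl-6, tba-4, elpc-3, rmd-1, flp-28, nlp-47 and daf-12.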

How the data were processed

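Tagged RNA was pulled down from total RNA with a probe against the tag, reverse transcribed, amplified over 2 nested rounds of 10 PCR cycles each, cut with Tn5 transposase and sequenced in pairs, per the labels' protocols. No molecular identifiers are described, so reads are not independent molecules, and intervals and floors cover counting error only. Trimmomatic, TopHat2 and DESeq are named, without versions or roles, per the submitters' processing notes. The genome build is not given in the sources used here. Per the file headers, the authors deposited whole-number counts per gene, RPM values made from them by the authors, and counts at splice acceptor sites, whose positions fall on exon starts of the WBcel235 annotation for 95.6% (plus strand) and 95.5% (minus strand) of cis sites with at least 10 reads. The authors' deposited comparison holds normalised group means (a signal whose scaling is not stated), a ratio of them as fold change, an adjusted p-value and, as other information, the authors' call. Left out were 3 per-sample columns that could be matched to no sample label. Site positions are given 1-based.

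Counts of the 14 SL1-tag libraries, in 8 groups, were fitted with edgeR 4.0.16 in R 4.3.3 (filterByExpr, TMM, quasi-likelihood F test with 6 residual degrees of freedom), with dauer minus the mean of L1 and L2 as the contrast. L1 and L2 have 1 library each, so the spread, a common biological coefficient of variation of 1.09, comes from the other groups. Benjamini-Hochberg adjustment ran over all 8954 genes, and an adjusted p under 0.05 is a call. The SE was obtained by dividing the size of the log2 fold change by the root of its F. An exact permutation test of 2 libraries against 2 cannot go below p = 0.333 and was not used. Site use was tested with diffSpliceDGE on the 4 libraries, with at least 10 reads in 2 of them. Scripts were tested on simulated data with less spread than these libraries and without genes lost in preparation. The simulation therefore does not measure the error of the calls here. The comparison and the 37 gene lists were chosen with earlier results of these data known. Named genes are myo-3, the 10 called genes with the largest change each way that have a symbol, no overlap and a mean of at least 32 CPM in the higher group, up to 4 members with the smallest p of each list and its most changed members, and the 5 genes with the smallest p for site use. Others are said to be chosen after their values were seen. Alternatives were DESeq2 1.42.0, limma 3.58.1 on log2(RPM + 1) and with voom weights, other filters, a replicate block, only the 4 libraries, 1 larval group, each library left out and, added after seeing the data, cis reads.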

Additional observations from a re-analysis of the deposited data

How the results depend on the processing

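With 295 genes called at first (241 higher and 54 lower in dauer muscle), DESeq2's size factors gave 326 (268 and 58). Larger counts came from DESeq2's Wald test with 1018 (840 and 178), no filter on low counts with 666 (487 and 179), a filter of 50 counts in 2 libraries with 582 (471 and 111), limma voom with library weights with 898 (746 and 152), limma on log2(RPM + 1) with 1007 (832 and 175) and cis reads added with 458 (343 and 115). Treating L1 and L2 as 1 group gave 93 (62 and 31), and the 4 libraries alone gave 0 (0 and 0). Leaving out 1 library gave 48 to 524 calls, 29 to 293 higher and 15 to 231 lower. The causes were not tested, apart from the fewer genes and libraries that some fits hold. The 241 higher and 54 lower genes kept their direction in every setting where they had a value, except 1 higher gene without L1, 1 without L2 and 3 with cis reads added. The replicate block gave 261 calls (187 and 74). The correlation of the differences between replicates 1 and 2 was -0.0364 to 0.0164 over pairs of groups. That value does not show whether libraries with the same replicate number were prepared together, which was not tested.

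Of 76 named genes that were called, 20 (without L2) to 76 (DESeq2's Wald test and the filter of 50 counts) stayed called, apart from the 4 libraries alone, which called 0. Directions turned for mex-3 with cis reads added (-4.04), unc-120 with cis reads added (-0.42), far-1 with limma on RPM (0.13), tni-3 without L2 (-0.39 in a range of -0.39 to 3.62 over single libraries left out) and pfn-3 with the replicate block (-0.33), in the 4 libraries alone (-0.07), without the second dauer library (-0.26) and without L2 (-0.42, with 0.65 as the highest value when 1 library was left out). Site use gave 0 called genes, and 1 without the first dauer library. Depth limits what can be seen, since 3 reads correspond to 1.46 and 0.281 CPM in the dauer libraries and 4.68 and 1.92 CPM in L1 and L2.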
